A study of Homo sapiens with 18 samples.

Results

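The 32 genes described here belong to the p53 pathway and were taken by symbol from the count table of 3 doxycycline-inducible HEK293T lines. All 32 were among the 28394 genes of the table, and 31 of them were among the 15447 genes with enough reads to be tested. TNFRSF10A, a death receptor gene, was the exception, with 0 to 7 counts in each library. The question put to the genes was whether they responded alike when a control reporter (ChFP) and when 102 proline-arginine repeats (102xPR) were induced.

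The transcription factor p53 is held low in unstressed cells by the ubiquitin ligase MDM2 and is stabilized by DNA damage, by impaired ribosome production and by other stresses. It binds a response element of a pair of decamers and raises genes for cell cycle arrest, apoptosis, DNA repair and metabolism, together with genes such as MDM2 and PPM1D that switch it off again. HEK293T is a human embryonic kidney line that carries adenovirus E1 genes and the SV40 large T antigen, a viral protein that binds p53. Several of these genes are also known targets of other stress pathways, GADD45A and PMAIP1 among them.

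Poly(A) RNA was sequenced from 18 libraries in 6 groups of 3. Each line carries GFP joined through a P2A peptide to the construct's own part, all behind a Tet-inducible promoter: ChFP, a red fluorescent protein that serves as the negative control, poly-adenylate, or 102xPR. Cells were left uninduced or were given doxycycline for 48 h, at 500 ng/μl as the labels state it. There is 1 stable line per construct, so an effect of the construct and of the line cannot be told apart in comparisons between lines, and no uninduced or induced cells without a construct are among the samples. The labels number the replicates 1 to 3 without calling them separate cultures. The p-values therefore reflect how far these libraries scatter, and that scatter may be technical only. The lysate was made with detergent and cycloheximide and cleared by centrifugation before RNA isolation. Levels are given below as CPM, counts scaled to a common library size, responses as log2 fold changes of induced over uninduced cells with the standard error (SE) of the fit, and a gene is called higher or lower when its adjusted p was below 0.05.

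The libraries held 15020739 to 27331102 counts. Along the second principal component (7.61% of the variance) 8 libraries stood apart from the other 10, and these sets followed the groups only in part. All 3 uninduced ChFP libraries and the third induced ChFP library were in the set of 8, while the other 2 induced ChFP libraries were in the set of 10. All 3 uninduced 102xPR libraries and the third induced one were in the set of 10, and the other 2 induced 102xPR libraries in the set of 8. All 3 induced poly-adenylate libraries and the first uninduced one were in the set of 10. The other 2 uninduced poly-adenylate libraries were in the set of 8. The response of each line is therefore partly mixed with the library set. The share of counts from mitochondrial genes was 6.30% to 6.52% in uninduced and 4.89% to 7.15% in induced ChFP cells, and 4.35% to 4.50% in uninduced and 2.96% to 4.56% in induced 102xPR cells. In poly-adenylate cells it was 4.56% to 6.75% in uninduced and 4.58% to 4.81% in induced libraries. The part of these differences in the results was not tested except where values with the set held fixed are given. Markers of HEK293T cells (VIM, NES, NEFM, PAX2 and GATA3) summed to 538 to 729 CPM in each library, with 568 to 583 CPM in uninduced and 702 to 729 CPM in induced 102xPR cells. There VIM (0.52) and GATA3 (0.69) were called higher and NES (−1.37) and PAX2 (−0.32) lower. Sums of the 5 epithelial, 4 fibroblast, 3 reported blood cell and 4 hepatocyte markers were 56.2 to 66.9, 14.8 to 31.5, 0 to 0.17 and 0.121 to 1.40 CPM, and CD3E, which defines T cells, was at 0 in all 18 libraries. On 102xPR induction the fibroblast sum went from between 22.8 and 27.2 to between 14.8 and 15.6 CPM, and the 3 of these markers tested were called lower. The hepatocyte sum went from between 0.221 and 0.485 to between 0.896 and 1.40 CPM. Of its 4 markers only ALB had enough reads to be tested, and it was called higher. ALB had those reads in induced 102xPR cells (0.697 to 1.21 CPM) and was at most 0.153 CPM in every other group. The epithelial marker CDH1 was called lower (−1.94). In ChFP cells the 1 called marker was KRT8 (0.57, adjusted p = 0.0408). The part of these markers in the results was not tested.

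The response element itself is visible in some of these promoters. RefSeq windows of GRCh38.p14, from 250 bases before to 50 after each annotated start, were found for 24 of the 32 genes. A p53 response element, with the core C and G of each decamer intact, up to 2 mismatches and up to 13 bases between the decamers, lay in windows of 5 of the 24, against 3.62% of all 27305 genes with a window. The sequences of those 5 are printed because they hold the letters p53 is known to bind and because the genes differed in their responses, with the matched decamers in capitals.
DDB2, chr11:47214724-47215023, plus strand: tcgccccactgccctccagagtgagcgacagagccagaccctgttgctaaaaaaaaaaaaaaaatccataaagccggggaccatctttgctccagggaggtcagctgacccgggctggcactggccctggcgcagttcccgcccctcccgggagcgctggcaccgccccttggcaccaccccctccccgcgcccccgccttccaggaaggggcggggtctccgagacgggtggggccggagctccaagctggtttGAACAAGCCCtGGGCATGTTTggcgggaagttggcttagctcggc
MDM2, chr12:68808767-68809066, plus strand: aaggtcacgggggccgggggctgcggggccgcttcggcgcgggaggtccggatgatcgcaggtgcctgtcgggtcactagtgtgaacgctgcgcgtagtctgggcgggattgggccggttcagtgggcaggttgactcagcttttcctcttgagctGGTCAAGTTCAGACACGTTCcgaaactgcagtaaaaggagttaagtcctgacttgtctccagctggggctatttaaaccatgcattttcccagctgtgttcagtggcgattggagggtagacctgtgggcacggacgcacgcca
FAS, chr10:88991181-88991480, plus strand: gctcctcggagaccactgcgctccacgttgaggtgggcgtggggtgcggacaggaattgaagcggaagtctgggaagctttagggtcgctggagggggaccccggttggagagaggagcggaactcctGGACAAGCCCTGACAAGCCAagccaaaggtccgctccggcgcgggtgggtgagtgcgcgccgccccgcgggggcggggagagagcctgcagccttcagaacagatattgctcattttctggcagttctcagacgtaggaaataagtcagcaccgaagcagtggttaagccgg
AEN, chr15:88621090-88621389, plus strand: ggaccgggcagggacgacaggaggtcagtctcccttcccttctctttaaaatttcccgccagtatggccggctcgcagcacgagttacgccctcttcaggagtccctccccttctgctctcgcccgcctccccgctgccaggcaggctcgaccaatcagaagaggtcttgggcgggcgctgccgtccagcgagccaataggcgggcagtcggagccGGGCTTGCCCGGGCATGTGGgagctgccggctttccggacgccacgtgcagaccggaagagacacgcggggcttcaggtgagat
FDXR, chr17:74872945-74873244, minus strand: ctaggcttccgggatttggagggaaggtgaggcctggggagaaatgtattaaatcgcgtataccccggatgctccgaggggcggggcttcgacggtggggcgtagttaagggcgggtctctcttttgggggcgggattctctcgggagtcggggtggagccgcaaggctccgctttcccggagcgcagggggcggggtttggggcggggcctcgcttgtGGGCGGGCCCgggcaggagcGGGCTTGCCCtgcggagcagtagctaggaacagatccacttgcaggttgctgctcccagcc
The DDB2 element matched without a mismatch, as in 0.0366% of all genes, and the other 4 each carried 2 mismatches. The decamers were 10 bases apart in FDXR, 1 base apart in DDB2 and adjacent in MDM2, FAS and AEN. Of the 5 genes, DDB2, MDM2 and FAS were called higher in both lines, AEN was called higher in 102xPR cells, and FDXR was called in neither. In ChFP cells AEN and FDXR lay just outside the threshold by edgeR (adjusted p = 0.0529 and 0.0530), and DESeq2 called both there (0.58, adjusted p = 0.00769, and 0.79, adjusted p = 0.00767). The AP-1 motif TGANTCA, searched on both strands, was found in BBC3, FAS and MDM2 (9.37% of all genes) and the amino acid response motif TGATGNAA in PLK3 (4.46% of all genes). A match is a description of letters, and elements outside these windows were not searched.

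Induction of ChFP raised 16 of the 31 genes tested and lowered none, while 2.01% of all genes tested were called in either direction and 1.13% higher (quasi-likelihood test of edgeR, Benjamini-Hochberg adjusted over all genes). The fitted change was above 0 for 30 of 31, against 52.7% of all genes, and in 28 of 31 all 3 induced libraries lay above all 3 uninduced libraries, as in 11.4% of all genes. The exceptions were TNFRSF10C, PMAIP1 and PPM1D. The median response of the 31 genes was 0.56 on the log2 scale, against 0.01 over all genes. Leaving out a library gave 5 to 22 called genes: 5 without the first and 8 without the second induced library, 22 without the third, and 8, 5 and 7 without uninduced libraries 1, 2 and 3. BTG2, SPATA18, TRIAP1, PIDD1 and TNFRSF10D kept their calls in all 6. DESeq2 called 8 more of the 31 genes higher: AEN, BAX, BBC3, CCNG1, FDXR, PHLDA3, TIGAR and TP53INP1. In the fit with a library-set term 8 genes were called (1.06% of all genes), all of them higher. The calls of CDKN1A, DDB2, FAS, GADD45A (0.48), POLH, RRM2B, TNFRSF10B, XPC and ZMAT3 (0.61) ended there, and PLK2 gained one. Among the 4 ChFP libraries of the set of 8, 1 induced and 3 uninduced, the fitted change was above 0 for 30 of 31 (median 0.39 against −0.01 over all genes). The lone induced library is there assumed to vary like the others, and 0.0185% of all genes and 0 of the 31 were called.

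Induction of 102xPR raised 23 of the 31 genes and lowered 3, with 5 not called. In this line 67.3% of all genes tested were called, 33.8% higher and 33.4% lower, and the median of the 31 was 0.66 against −0.01 over all genes. The same 26 genes were those whose induced and uninduced libraries did not overlap, which held upward for 35.4% and downward for 34.6% of all genes, and the 5 others were BTG2, BAX, BBC3, FDXR and SUSD6. In the fit with a library-set term 25 genes were called (65.1% of all genes), and among the 4 libraries of the set of 10, 1 induced and 3 uninduced, 20 were (51.9% of all genes). Without any 1 library of this line 23 to 26 genes were called. TP53INP1 lost its call without induced library 2 or 3 or uninduced library 1 or 3 (−0.49 to −0.43), and ZMAT3 without induced 1 (0.28) or uninduced 2 (0.32). PHLDA3 (0.85 to 0.94) and RRM2B (0.18 to 0.25) lost theirs without induced 1 or 3 or uninduced 2 or 3.

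**Figure D1:**
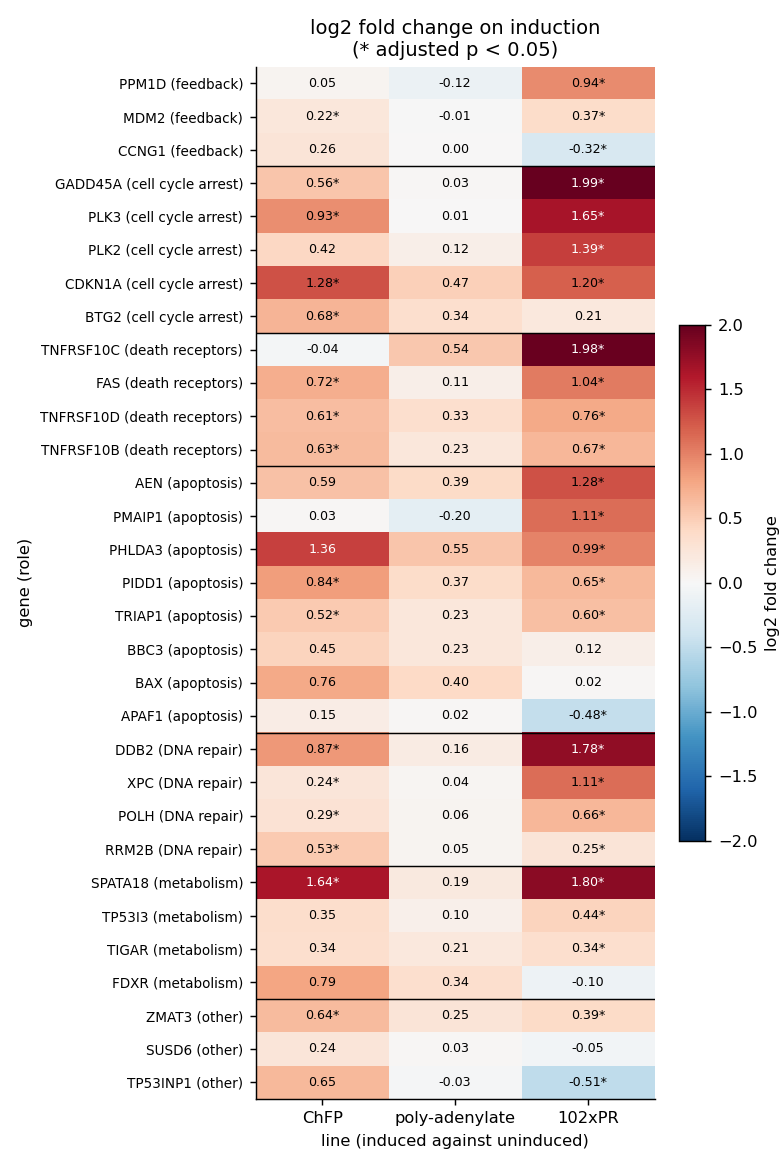
Fitted log2 fold change of induced over uninduced cells for 31 p53 pathway genes (rows, grouped by role) in the ChFP, poly-adenylate and 102xPR lines (columns, 3 libraries a group), with red for higher, blue for lower and an asterisk for adjusted p below 0.05. The ChFP column holds 16 asterisks, all higher, the poly-adenylate column none, and the 102xPR column 26, of which 3 are lower.

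Gene by gene, in the fit without replicate or library-set terms, 10 of the 31 rose in both lines with no called difference between the responses. In 5 others both rises were called, with the larger in 102xPR cells. A further 5 were called higher in 102xPR cells alone, with a response larger than in ChFP cells. In 7 genes the 102xPR response was the lower: 3 fell in 102xPR cells, 1 rose in ChFP cells alone and 3 were called in neither line. Of the remaining 4, TP53I3, PHLDA3 and TIGAR were called in 102xPR cells with no called difference, and BBC3 was not called in any of these tests. Of all genes 58.3% had a called difference, 28.0% higher and 30.3% lower in 102xPR, so a count of 17 of 31 is near the background share. The same shares stand behind the counts by role below, with 1.13% of all genes called higher in ChFP cells. In 102xPR cells 33.8% were called higher and 33.4% lower. Each role holds few genes.

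**Figure D2:**
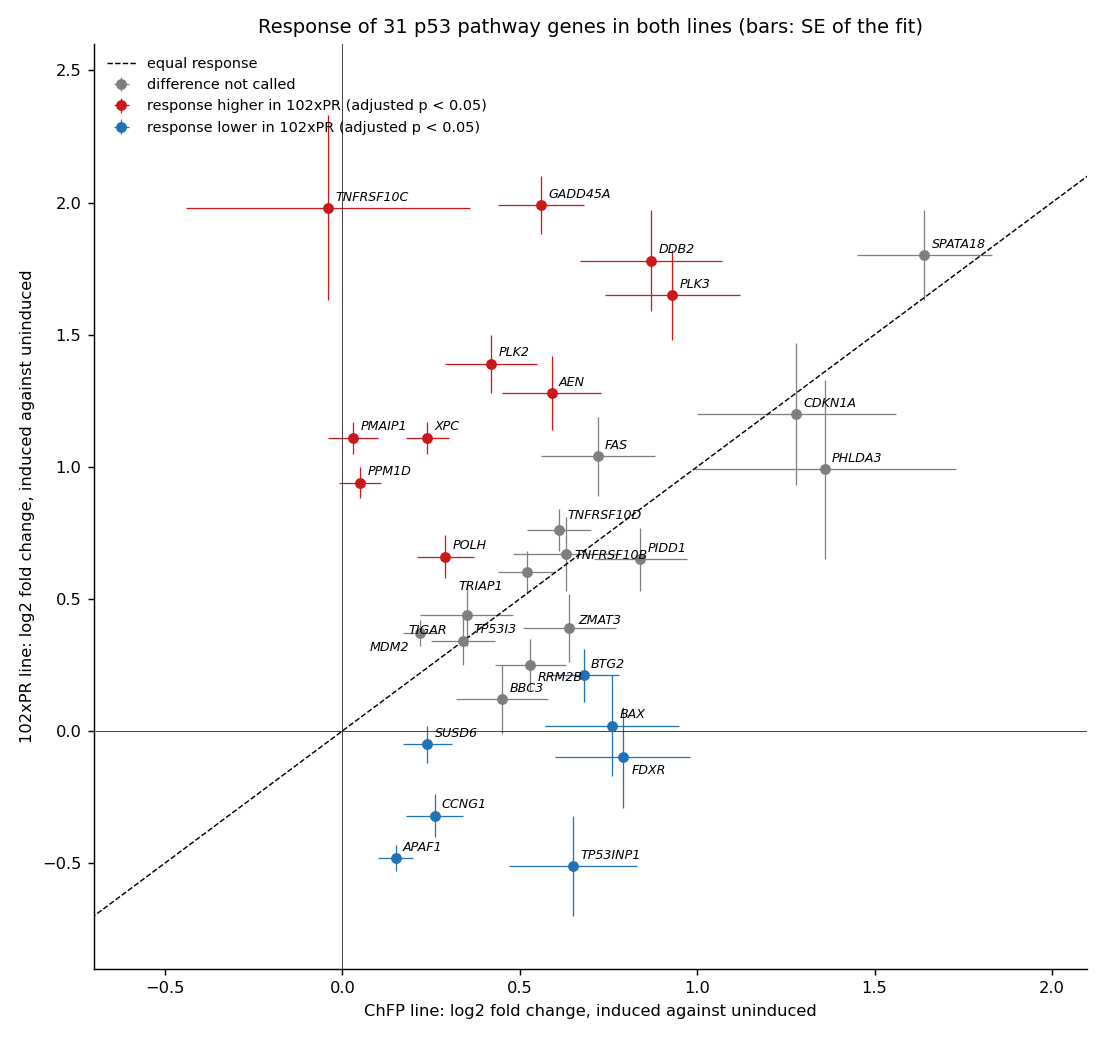
Log2 fold change on induction in the ChFP line (horizontal) against that in the 102xPR line (vertical) for 31 genes, with SE bars, a dashed line of equal response, and colour for the called direction of the difference. GADD45A at 0.56 and 1.99, and TP53INP1 at 0.65 and −0.51, lie on opposite sides of the line, while SPATA18 at 1.64 and 1.80 lies close to it.

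The genes that restrain p53 divided. MDM2, the ubiquitin ligase that marks p53 for degradation, stood at 172, 165 and 166 CPM in uninduced and 204, 182 and 200 CPM in induced ChFP cells. In 102xPR cells it stood at 159, 164 and 165 CPM before and 223, 207 and 200 CPM after induction. Induced libraries lay above uninduced libraries in both lines, with responses of 0.22 ± 0.05 (adjusted p = 0.0408) and 0.37 ± 0.05 (adjusted p = 1.91e-06). The difference of 0.15 was not called (95% interval 0.00 to 0.31, adjusted p = 0.0900). PPM1D, a phosphatase that removes activating phosphates from p53 and its kinases, behaved otherwise: 50.4, 48.4 and 45.3 CPM became 50.3, 47.8 and 51.2 CPM in ChFP cells, with overlapping groups. In 102xPR cells 44.2, 45.9 and 45.6 CPM became 92.6, 84.7 and 82.7 CPM. Its difference was 0.89 ± 0.08 (adjusted p = 5.13e-09), a 1.85-fold larger response in 102xPR cells. CCNG1, cyclin G1, which recruits a phosphatase to MDM2, stood at 344 to 373 CPM in uninduced and 409 to 462 CPM in induced ChFP cells (0.26 ± 0.08, adjusted p = 0.0781). It fell in 102xPR cells from 372 to 421 CPM down to 294 to 320 CPM (−0.32 ± 0.08, adjusted p = 0.000919). The difference was −0.58 ± 0.11 (adjusted p = 0.000125).

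Of the 5 genes of cell cycle arrest, 4 rose in ChFP cells and 4 in 102xPR cells. CDKN1A, which encodes the cyclin-dependent kinase inhibitor p21, stood at 53.7, 40.6 and 34.5 CPM in uninduced and 138, 96.0 and 81.9 CPM in induced ChFP cells. In 102xPR cells 84.3, 57.6 and 53 CPM became 177, 129 and 145 CPM. The groups did not overlap within a line, and the first replicate was the highest in each. The responses were 1.28 ± 0.28 (2.43-fold, adjusted p = 0.0414) and 1.20 ± 0.27 (2.30-fold, adjusted p = 0.00139). Their difference was −0.08, with a 95% interval of −0.91 to 0.75 that in this fit leaves room for a sizeable difference either way. With a term for replicate number the difference was −0.05 ± 0.10, and the ChFP response was 1.28 ± 0.07 (adjusted p = 1.23e-10). With terms for replicate number and library set the difference was 0.19 ± 0.08 (adjusted p = 0.0401). The ChFP call ended in the fit with a library-set term alone (1.05, adjusted p = 0.179).

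GADD45A, a stress protein that blocks the cell cycle and assists repair, gave the largest difference among the arrest genes. It stood at 15.9, 18.4 and 15.6 CPM in uninduced and 27, 24.4 and 22.7 CPM in induced ChFP cells, and at 20.2, 17.8 and 16.4 CPM in uninduced and 78.0, 69.5 and 70.3 CPM in induced 102xPR cells. The response was 1.48-fold in ChFP and 3.98-fold in 102xPR cells, and the difference was 1.43 ± 0.17 (adjusted p = 7.72e-07). The polo-like kinases PLK2 and PLK3, which act in centriole duplication and in stress checkpoints, followed the same order. PLK2 lay at 5.10 to 6.36 CPM in uninduced and 7.48 to 8.58 CPM in induced ChFP cells, and rose in 102xPR cells from between 7.47 and 7.73 CPM to between 18 and 23.9 CPM (difference 0.97 ± 0.17, adjusted p = 5.05e-05). PLK3 rose in both lines, by 0.93 ± 0.19 and 1.65 ± 0.17, and its difference of 0.71 ± 0.26 (adjusted p = 0.0216) lost its call in the fit with a library-set term (0.59, adjusted p = 0.134). BTG2, an antiproliferative cofactor of mRNA deadenylation, went the other way. It stood at 43.2, 42.6 and 37.8 CPM in uninduced and 75.0, 63.3 and 60.4 CPM in induced ChFP cells, a response of 0.68 ± 0.10 (adjusted p = 0.00275). In 102xPR cells 44.0, 38.0 and 40.6 CPM and 55.2, 46.1 and 41.0 CPM overlapped (0.21 ± 0.10, adjusted p = 0.0693), a change that DESeq2 called (0.22, adjusted p = 0.0457). The difference was −0.47 ± 0.14 (adjusted p = 0.00926), not called in the fit with a library-set term (−0.46, adjusted p = 0.103).

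**Figure D3:**
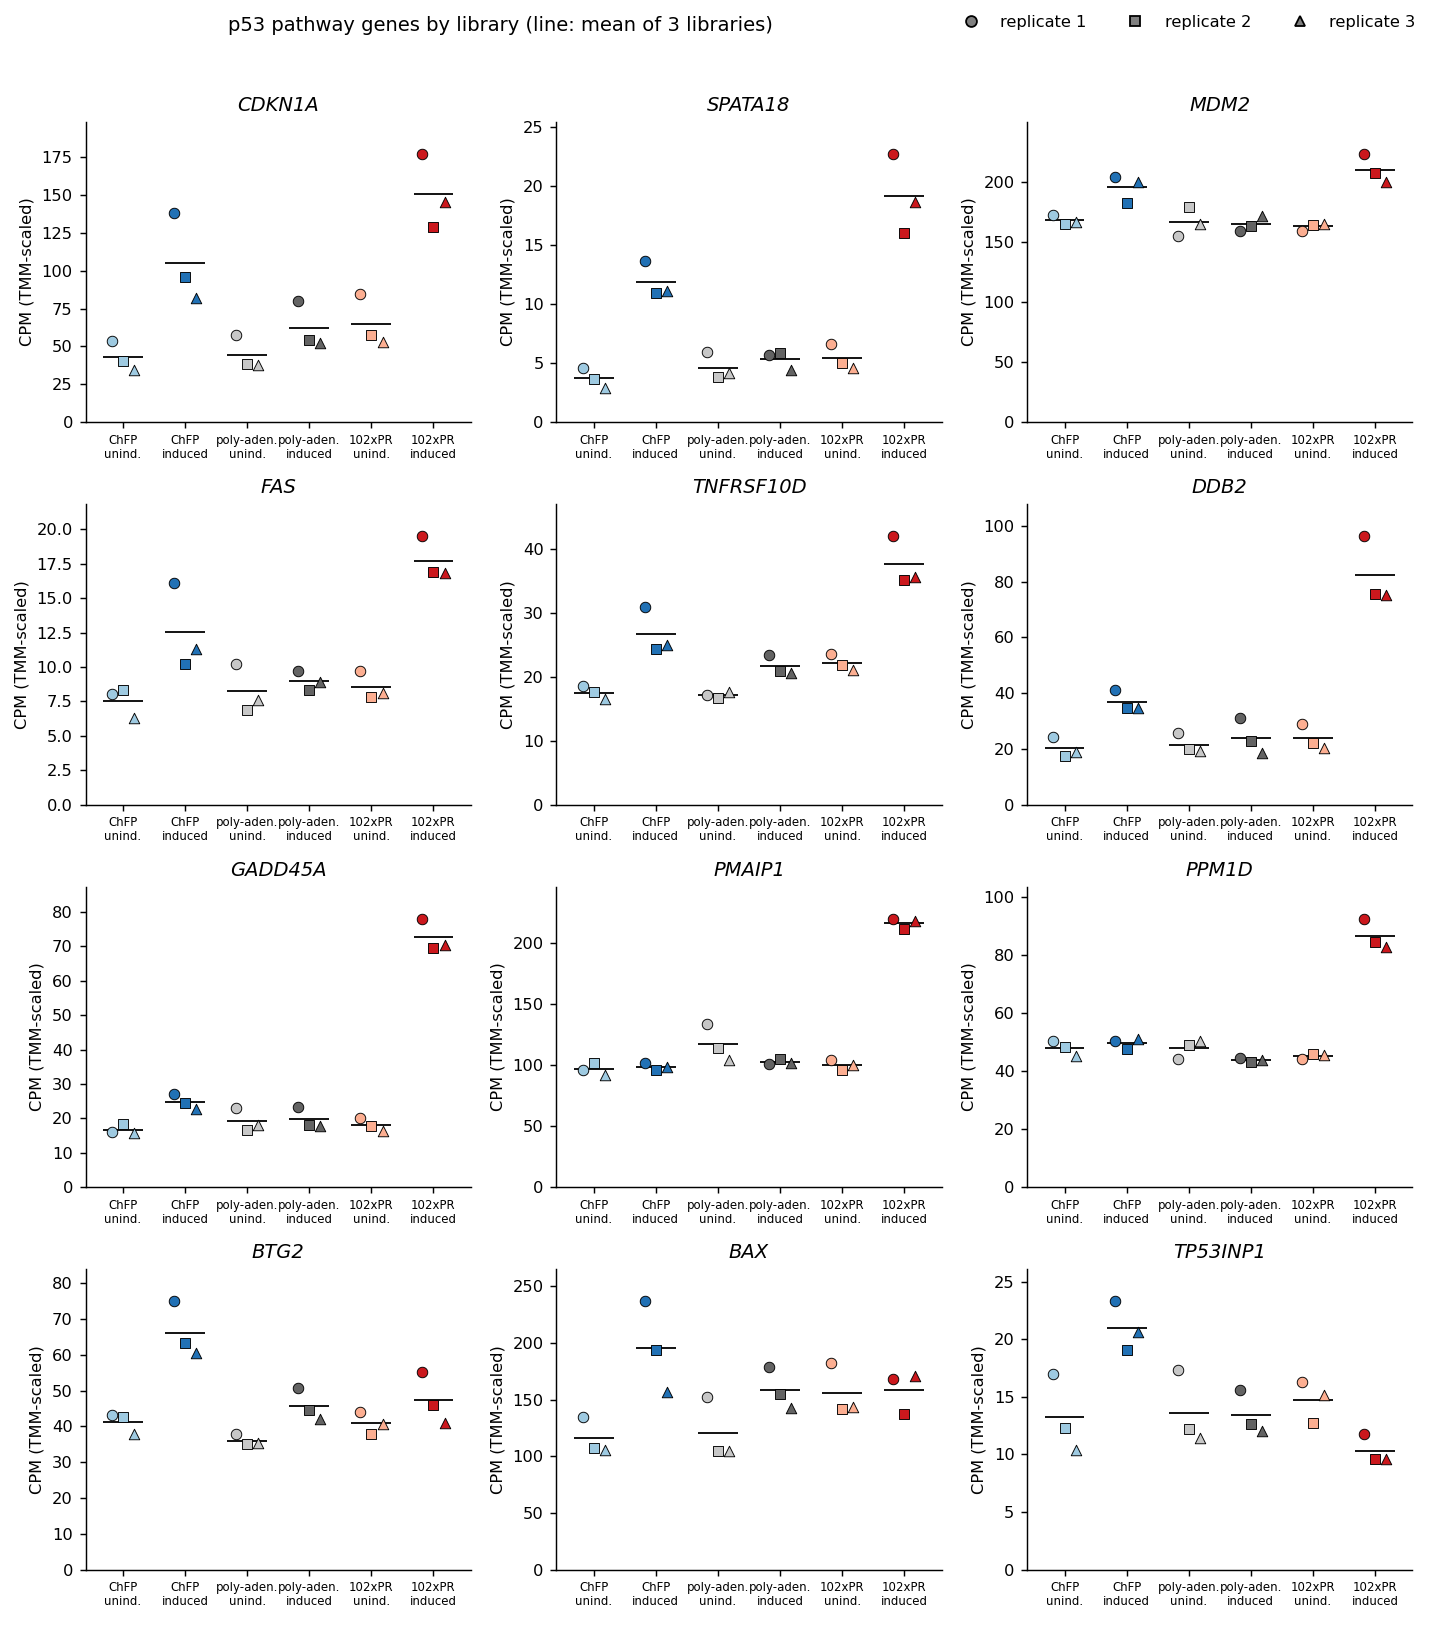
Level in CPM of 12 p53 pathway genes (panels, vertical axes from 0) in each of the 18 libraries, by group along the horizontal axis, with a symbol for each replicate number and a bar for the mean of 3 libraries. CDKN1A rises with induction of both ChFP and 102xPR, PMAIP1 and PPM1D are high in the 3 induced 102xPR libraries, and TP53INP1 is lowest there at 9.58 to 11.8 CPM.

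Of the 4 death receptor genes tested, 3 rose in ChFP cells and 4 in 102xPR cells. FAS, the receptor for FAS ligand, stood at 8.01, 8.33 and 6.33 CPM in uninduced and 16.1, 10.2 and 11.3 CPM in induced ChFP cells. In 102xPR cells 9.72, 7.81 and 8.13 CPM became 19.5, 16.9 and 16.8 CPM. No library overlapped between the groups of a line, and the responses were 0.72 ± 0.16 (adjusted p = 0.0281) and 1.04 ± 0.15 (adjusted p = 4.24e-06), with a difference of 0.32 (95% interval −0.14 to 0.79). TNFRSF10B, the TRAIL receptor DR5, rose by 0.63 ± 0.15 and 0.67 ± 0.14, and its difference of 0.04 had an interval of −0.40 to 0.48. The ChFP calls of FAS and TNFRSF10B ended in the fit with a library-set term (0.61, adjusted p = 0.152, and 0.49, adjusted p = 0.239). TNFRSF10D, a TRAIL receptor with a truncated death domain, rose by 0.61 ± 0.09 and 0.76 ± 0.08, with an interval of −0.10 to 0.41 for the difference. TNFRSF10C, a decoy TRAIL receptor without a cytoplasmic domain, differed from these. It was low throughout, at 0.212 to 0.610 CPM in ChFP cells of both kinds, and stood at 0.258, 0.280 and 0.269 CPM in uninduced and 0.745, 1.42 and 1.04 CPM in induced 102xPR cells. The difference was 2.02 ± 0.54 (95% interval 0.90 to 3.14, adjusted p = 0.00275).

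Of the 8 apoptosis genes, 2 rose in ChFP cells, and 5 rose and 1 fell in 102xPR cells. PMAIP1 encodes NOXA, a BH3-only protein that neutralizes MCL1, and stood at 95.8, 102 and 91.9 CPM in uninduced and 102, 95.7 and 98.4 CPM in induced ChFP cells. In 102xPR cells 104, 96.0 and 100 CPM became 220, 212 and 218 CPM. The ChFP groups overlapped and the 102xPR groups were far apart, and the difference was 1.08 ± 0.09 (2.11-fold, adjusted p = 1.57e-09). AEN, a nuclease that acts in apoptosis, stood at 83.5 to 102 CPM in uninduced and 113 to 158 CPM in induced ChFP cells (0.59 ± 0.14, adjusted p = 0.0529) and rose in 102xPR cells from between 102 and 128 CPM to between 244 and 286 CPM. Its difference was 0.69 ± 0.20 (adjusted p = 0.00874).

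BAX, the pore-forming effector of mitochondrial apoptosis, and APAF1, the scaffold of the apoptosome, were on the other side. BAX stood at 135, 107 and 106 CPM in uninduced and 237, 194 and 157 CPM in induced ChFP cells, without overlap (0.76 ± 0.19, adjusted p = 0.0609). In 102xPR cells 182, 142 and 144 CPM and 168, 137 and 171 CPM overlapped (0.02 ± 0.19). This 102xPR change was 0.28 in the fit with a library-set term, not called (adjusted p = 0.17). With terms for replicate number and library set it was called higher (0.22 ± 0.04, adjusted p = 5.94e-06). The difference of −0.74 ± 0.27 (adjusted p = 0.0298) became −0.21 (adjusted p = 0.561) in the fit with a library-set term. Its call also ended without the first induced or the second or the third uninduced ChFP library, or without the second induced or first uninduced 102xPR library (−0.68 to −0.58). With terms for replicate number and library set the BAX difference was called at −0.34 ± 0.07 (adjusted p = 2.38e-05). APAF1 stood at 46.0, 44.9 and 44.2 CPM in uninduced and 53.1, 48.8 and 47.9 CPM in induced ChFP cells (0.15 ± 0.05, adjusted p = 0.128). It fell in 102xPR cells from 45.2, 47.8 and 44.4 CPM to 32.8, 33.0 and 32.5 CPM (−0.48 ± 0.05, adjusted p = 3.03e-08), and the difference was −0.63 ± 0.08 (adjusted p = 2.17e-07).

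The other 4 apoptosis genes had no called difference. PIDD1, the core of a caspase-2-activating complex, rose by 0.84 ± 0.13 and 0.65 ± 0.12, and TRIAP1, a small mitochondrial protein that opposes apoptosis, by 0.52 ± 0.08 and 0.60 ± 0.08. TRIAP1 gained a called difference in the fit with a library-set term (0.37, adjusted p = 0.000938). PHLDA3, an inhibitor of AKT signalling, rose in 102xPR cells (0.99 ± 0.34, adjusted p = 0.0217), while its ChFP change of 1.36 ± 0.37 was not called (adjusted p = 0.0790). BBC3, which encodes the BH3-only protein PUMA, was called in neither line by edgeR, at 0.45 ± 0.13 in ChFP (adjusted p = 0.0749) and 0.12 ± 0.13 in 102xPR cells (adjusted p = 0.429). DESeq2 called the ChFP change (0.45, adjusted p = 0.0248). The BBC3 difference of −0.34 ± 0.18 (adjusted p = 0.118) was called with a term for replicate number (adjusted p = 0.0178). In the fit with a library-set term it was −0.07.

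All 4 genes of DNA repair and nucleotide supply rose in both lines, and 3 of them rose more in 102xPR cells. DDB2, which recognizes ultraviolet damage, stood at 24.2, 17.4 and 19.0 CPM in uninduced and 41.2, 34.8 and 34.6 CPM in induced ChFP cells. In 102xPR cells 28.9, 22.1 and 20.5 CPM became 96.2, 75.4 and 75.1 CPM. The responses of 1.82-fold (adjusted p = 0.0496) and 3.43-fold (adjusted p = 1.76e-06) differed by 0.91 ± 0.28 (adjusted p = 0.0130). XPC, its partner in the recognition step of nucleotide excision repair, stood at 49.4 to 56.4 CPM in uninduced and 60.6 to 65.0 CPM in induced ChFP cells, and at 47.3 to 52.2 CPM and 101 to 112 CPM in 102xPR cells. Neither pair of groups overlapped, and the difference was 0.86 ± 0.09 (adjusted p = 3.01e-08). POLH, a polymerase that copies past ultraviolet lesions, rose by 0.29 ± 0.08 and 0.66 ± 0.08, and its difference of 0.36 ± 0.11 (adjusted p = 0.00612) was not called in the fit with a library-set term (0.32, adjusted p = 0.0541). RRM2B, a ribonucleotide reductase subunit, rose by 0.53 ± 0.10 and 0.25 ± 0.10, with an interval of −0.56 to 0.01 for the difference. The ChFP calls of these 4 genes all ended in the fit with a library-set term (adjusted p from 0.0771 to 0.194), where the fitted responses were 0.82 for DDB2, 0.25 for XPC, 0.31 for POLH and 0.40 for RRM2B, against 0.87, 0.24, 0.29 and 0.53.

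Of the 4 genes of metabolism and mitochondria, 1 rose in ChFP and 3 in 102xPR cells. SPATA18 had the strongest ChFP response of all 31 genes by adjusted p. It encodes a protein of mitochondrial quality control and stood at 4.59, 3.69 and 2.87 CPM in uninduced and 13.6, 10.9 and 11.1 CPM in induced ChFP cells. In 102xPR cells 6.63, 5.00 and 4.63 CPM became 22.7, 16.0 and 18.6 CPM. Neither pair of groups overlapped, and the responses were 3.13-fold (adjusted p = 0.000299) and 3.47-fold (adjusted p = 1.94e-08), with a difference of 0.15 (95% interval −0.39 to 0.70). FDXR, ferredoxin reductase, supplies electrons to mitochondrial enzymes. It stood at 20.3, 16.2 and 14.8 CPM in uninduced and 36.7, 30.0 and 22.6 CPM in induced ChFP cells (0.79 ± 0.19, adjusted p = 0.0530), and its 102xPR groups, 27.4, 21.7 and 20.8 CPM and 24.0, 19.4 and 22.1 CPM, overlapped (−0.10 ± 0.19). The difference was −0.90 ± 0.27 (adjusted p = 0.0115), and −0.39 in the fit with a library-set term, where it was not called (adjusted p = 0.337). TIGAR, which lowers glycolytic flux, changed by 0.34 ± 0.09 in each line, called in 102xPR (adjusted p = 0.00207) and just outside the threshold in ChFP cells (adjusted p = 0.0518). TP53I3, a quinone oxidoreductase, rose by 0.44 ± 0.12 in 102xPR cells and stood at 0.35 ± 0.13 in ChFP cells (adjusted p = 0.137).

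TP53INP1, a nuclear and autophagy protein that promotes p53 activity, gave the most negative difference of the 31 genes. It stood at 17, 12.3 and 10.4 CPM in uninduced and 23.3, 19.1 and 20.6 CPM in induced ChFP cells (0.65 ± 0.18, adjusted p = 0.0661). In 102xPR cells 16.3, 12.7 and 15.2 CPM became 11.8, 9.58 and 9.60 CPM, a fall that was called (−0.51 ± 0.19, adjusted p = 0.0217) but not in the fit with a library-set term (−0.40, adjusted p = 0.148). The induced and uninduced groups did not overlap in either line, and the difference was −1.17 ± 0.26 (adjusted p = 0.00101). ZMAT3, an RNA-binding protein that regulates splicing, rose by 0.64 ± 0.13 and 0.39 ± 0.13 with an interval of −0.62 to 0.13 for the difference. SUSD6 was called in neither line, and its difference was −0.29 ± 0.10 (adjusted p = 0.0186), or −0.28 in the fit with a library-set term (adjusted p = 0.0838).

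**Figure D4:**
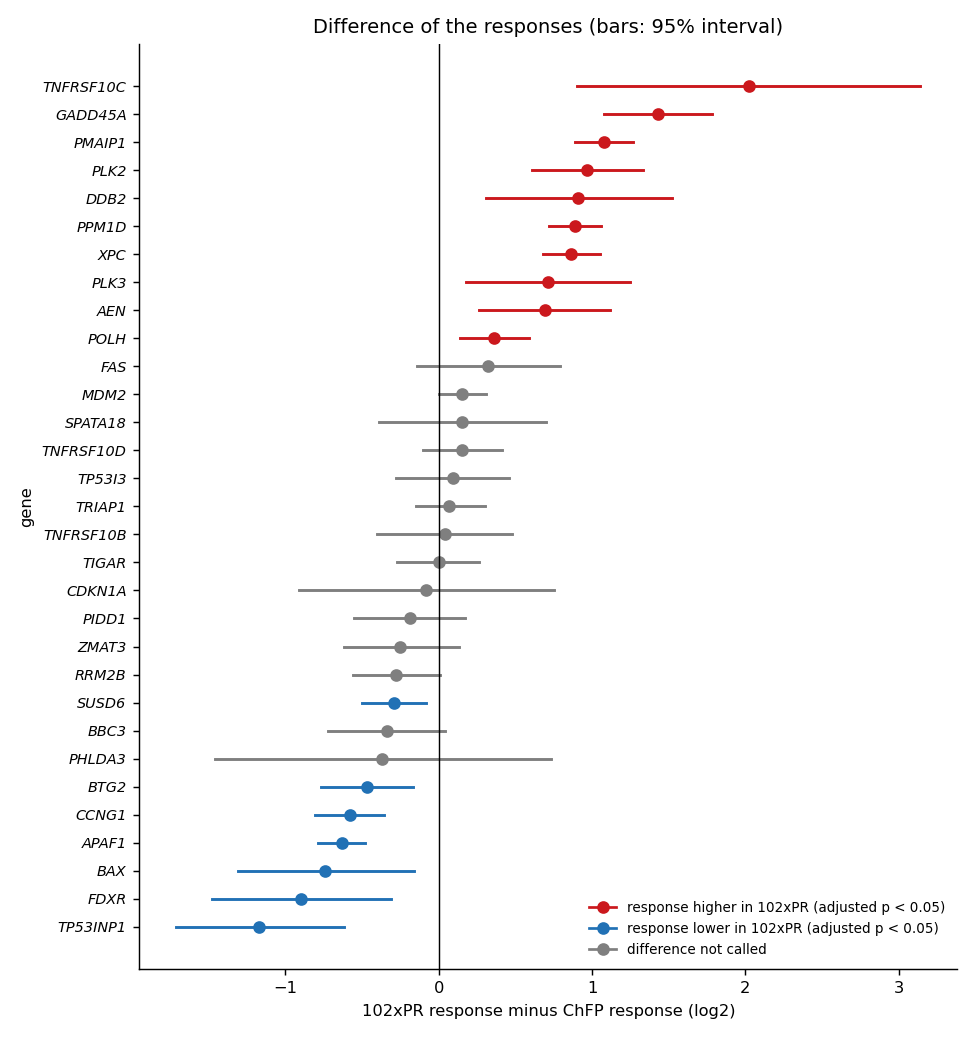
Difference of the 102xPR and ChFP responses (log2, horizontal) for 31 genes in order of size, with 95% intervals from the fit over all 18 libraries; red and blue mark called differences. The intervals of 10 genes lie above 0 and are called, from POLH at 0.36 to TNFRSF10C at 2.02, and those of 7 lie below 0, from SUSD6 at −0.29 to TP53INP1 at −1.17.

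In the fit with a library-set term 12 of the 31 differences were called (47.3% of all genes), 9 higher and 3 lower, and the calls of BAX, BTG2, FDXR, PLK3, POLH and SUSD6 ended. Of these, BTG2, SUSD6, POLH and PLK3 kept fitted differences of −0.46, −0.28, 0.32 and 0.59, while BAX and FDXR went to −0.21 and −0.39. Without any 1 of the 12 libraries 15 to 18 were called, and 14 of the 17 calls held in all 12 fits, the exceptions being BAX, PLK3 and SUSD6. PLK3 lost its call without uninduced ChFP library 2 or 3, induced 102xPR library 1 or uninduced 102xPR library 2 (0.55 to 0.64), and SUSD6 without induced 102xPR library 3 (−0.23). For the 10 genes that rose in both lines with no called difference the fitted differences ran from −0.28 to 0.32, and the widest intervals reached −0.91 and 0.79. These intervals do not show that the responses were equal. With terms for replicate number and library set (51.6% of all genes called), differences were called for CDKN1A (0.19), FAS (0.46), TNFRSF10B (0.23), TRIAP1 (0.35) and ZMAT3 (−0.31). With the replicate term alone RRM2B (−0.27) and ZMAT3 (−0.25) had called differences, and MDM2 had one at a minimum count of 50 (0.18).

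Poly-adenylate induction left none of the 31 genes called, where 1.08% of all genes were. By edgeR 8 of the 31 had an unadjusted p below 0.05, against 17.3% of all genes, and DESeq2 called 1, BTG2. The fitted change was above 0 for 27 of 31 (49.6% of all genes), from −0.20 in PMAIP1 to 0.55 in PHLDA3, with a median of 0.16 against 0.00 over all genes. Within the set of 10, with 3 induced libraries and 1 uninduced, it was above 0 for 17 of 31. The median there was 0.02 against 0 over all genes, with CDKN1A at 0.10 and SPATA18 at −0.15. CDKN1A stood at 57.7, 38.3 and 37.7 CPM in uninduced and 80.1, 54.2 and 52.2 CPM in induced cells, which overlapped, with the first replicate highest in both groups (0.47 ± 0.28, adjusted p = 0.405). With a term for replicate number in the edgeR fit the CDKN1A change was called (0.48 ± 0.07, adjusted p = 0.00324). SPATA18 stood at 5.91, 3.82 and 4.15 CPM and 5.71, 5.87 and 4.42 CPM, also overlapping (0.19 ± 0.20). In 5 of 31 genes all induced libraries lay above all uninduced libraries, against 11.4% of all genes. Without the first uninduced library 4 genes were called: TRIAP1, PIDD1, BBC3 and TIGAR (0.32 to 0.48). The uninduced libraries then left are both in the set of 8 and the induced ones all in the set of 10. In that fit response and library set cannot be told apart.

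Set against the ChFP response, the poly-adenylate response was lower in the fitted value for 30 of 31 genes (48.6% of all genes were above 0), with a median difference of −0.30 against −0.01 over all genes. None was called, where 0.0259% of all genes were, and 18 had an unadjusted p below 0.05 by edgeR against 10.9% of all genes. DESeq2 called 1. SPATA18 had the smallest adjusted p (−1.46 ± 0.28, adjusted p = 0.0864). This difference shares the ChFP libraries with the difference between 102xPR and ChFP, so the pair of comparisons is not independent. In the authors' deposited table for the poly-adenylate line, which ranked genes most like induced poly-adenylate against induced ChFP cells (Spearman's rho 0.844 across genes), 10 of 29 genes with an adjusted p were lower and 0 higher, against 0.920% and 2.73% of all genes. SPATA18 stood at −1.09 in the authors' deposited table (adjusted p = 3.95e-06). The authors' deposited table for 102xPR ranked genes most like induced 102xPR against induced ChFP cells (Spearman's rho 0.992). In it 14 of 32 were higher and 4 lower, against 26.8% and 25.7% of all genes. A comparison of induced cells does not subtract levels before induction, so it is not a difference of responses.

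Before induction 3 of the 31 genes were called higher in the 102xPR than in the ChFP line, against 7.35% of all genes higher and 12.2% in either direction. They were TRIAP1 (0.35), PIDD1 (0.41) and TNFRSF10D (0.34). The uninduced ChFP libraries were all in the set of 8 and the uninduced 102xPR libraries all in the set of 10, so line and library set cannot be told apart here.

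Of 18 tested genes that act on p53, 0 rose and 1 fell in ChFP cells, and 10 rose and 3 fell in 102xPR cells. Of all genes 1.13% were called higher and 0.887% lower in ChFP cells, and 33.8% higher and 33.4% lower in 102xPR cells, as for the lists that follow. The genes named from each list are the 3 with the smallest p in the difference of the 102xPR and ChFP responses. They do not stand for their lists. Among them KAT5, an acetyltransferase of p53, stood at 31.9 ± 1.40 and 27.4 ± 1.15 CPM in ChFP cells and rose from 28.5 ± 0.899 to 53.7 ± 1.91 CPM in 102xPR cells (SD, n = 3). The checkpoint kinase CHEK1 had a fitted change of 0.00 ± 0.05 (SE) in ChFP cells and rose by 0.63 ± 0.05 in 102xPR cells, and the mitotic kinase AURKA fell by 0.26 in ChFP cells (adjusted p = 0.00529) and rose by 0.34 ± 0.04 in 102xPR cells.

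Of 25 other tested p53 target genes 7 rose and 0 fell in ChFP cells, with a median of 0.34, and 12 rose and 2 fell in 102xPR cells, with a median of 0.31. The responses differed for 8 of the 25, 4 in each direction, against 58.3% of all genes. SESN2, a sestrin that restrains mTORC1 and is also a target of the integrated stress response, stood at 61.1 ± 3.31 and 86.4 ± 1.41 CPM in ChFP cells and at 74.4 ± 3.96 and 217 ± 11.4 CPM in 102xPR cells (difference 1.05 ± 0.12, adjusted p = 8.04e-07). In poly-adenylate cells SESN2 fell by 0.38 (adjusted p = 0.0422). PRKAB1, a subunit of AMPK, and POLK, a translesion polymerase, had differences of 1.01 ± 0.09 and 0.62 ± 0.09. Of 12 genes that p21 and the DREAM repressor complex are known to lower, 0 rose and 3 fell in ChFP cells (median −0.20), while 6 rose and 3 fell in 102xPR cells (median 0.13), and 6 differences were higher in 102xPR (28.0% of all genes). BUB1, PLK1 and CDC20, which act in mitosis, were picked by that difference. They stood at −0.24 ± 0.05, −0.26 ± 0.06 and −0.16 ± 0.04 in ChFP cells, the last not called (adjusted p = 0.0529). In 102xPR cells they rose by 0.55 ± 0.05, 0.54 ± 0.06 and 0.47 ± 0.04. CCNB1, of the same list, was called lower in both lines (−0.24 and −0.13).

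The genes also varied together between replicates of a group. Replicate 1 was the highest of 3 in at least 5 of the 6 groups for 21 of the 31 genes, against 7.56% of all genes tested. Replicates 2 and 3 were so for 0 of 31, against 1.41% and 2.24% of all genes. In CDKN1A, BTG2, XPC, DDB2, CCNG1, TP53INP1, ZMAT3, FDXR and AEN replicate 1 was the highest in all 6 groups, uninduced groups included. The median deviation of the 31 genes from their group mean was 0.09 to 0.20 on the log2 scale in the 6 libraries numbered 1, −0.09 to 0.00 in those numbered 2 and −0.12 to −0.04 in those numbered 3. What the number marks is not given in the labels.

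**Figure D5:**
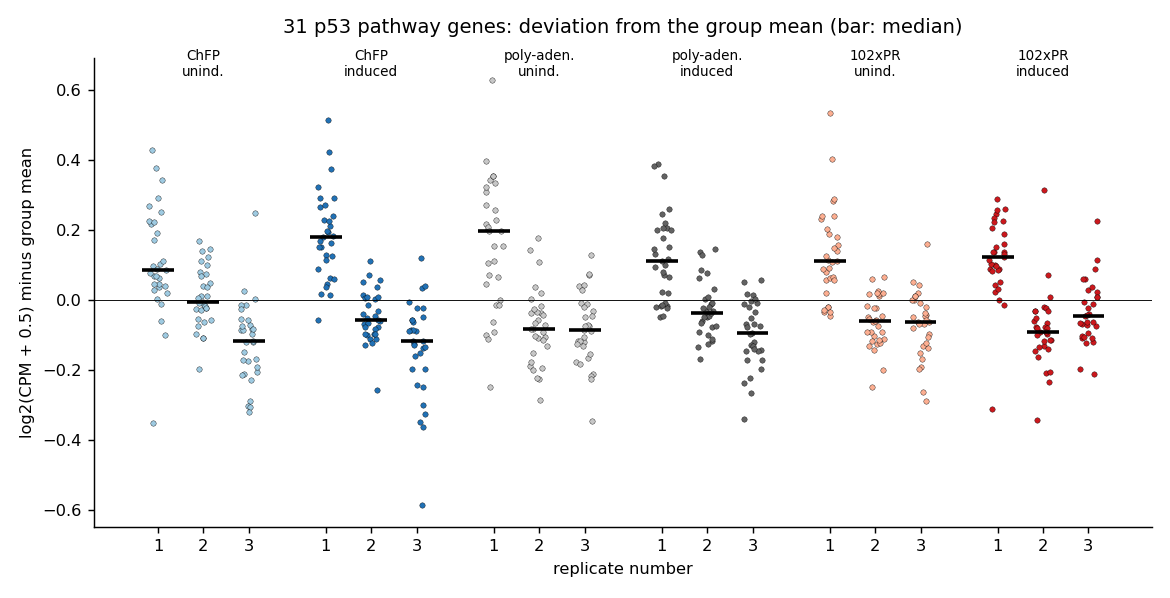
Deviation of each of 31 p53 pathway genes from its group mean (log2 of CPM plus 0.5, vertical) in the 18 libraries, ordered by group and replicate number, with a bar at the median of the genes. The 6 bars for replicate 1 lie between 0.09 and 0.20, and those for replicates 2 and 3 at or below 0.00.

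Without strand information for the counting, reads of overlapping genes cannot be told apart. In RefSeq 14 of the 32 genes overlap another protein-coding or long noncoding gene, among them MDM2, CDKN1A, FAS, XPC, AEN and APAF1. In these bulk samples a change in level per cell and a change in the share of cells that express a gene cannot be told apart.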

How the data were processed

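The authors deposited whole-number counts per gene for 18 libraries. The submitters' processing notes name bcl2fastq 2.20.0.422; cutadapt 3.4, HISAT2 2.1.0 (build hg38), featureCounts and also DESeq2 1.30.1. Annotation and strand setting: not given in the sources used here. The authors also deposited 2 tables of comparisons with log2 fold changes and adjusted p-values, whose contrasts are not stated and were matched by rank. The rest was computed from the counts. The 550 genes without a symbol (0.041% of counts) carry an Entrez identifier and were kept. Genes were filtered with filterByExpr (minimum count 10), scaled by TMM and fitted with edgeR 4.0.16 (R 4.3.3) by its robust quasi-likelihood test over all 18 libraries, with 1 term per group. P-values were adjusted by Benjamini-Hochberg over 15447 genes at a threshold of 0.05, and intervals are 95%. The scripts were tested on simulated data.

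Depth was 15020739 to 27331102 counts a library, and no pair of libraries was identical. Alternatives were median-ratio factors, library totals, DESeq2 1.42.0, no filter, a minimum count of 50, a replicate block, the library set as a covariate, only the libraries compared, and leaving out each library. Fits within a library set and with set and block together were added after seeing the data. The members, lists and named genes (all 32 members and 3 genes of each list with the smallest p in the difference) were chosen with earlier results of these data known. The values of 2 genes of the lists are not reported here.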

Additional observations from a re-analysis of the deposited data

Results flagged for a closer look

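The response to induction differed between the 102xPR and ChFP lines for 17 of the 31 genes, by the test of the difference itself (quasi-likelihood test of edgeR, Benjamini-Hochberg adjusted). The 102xPR response was the higher, in log2 units, for TNFRSF10C (2.02), GADD45A (1.43), PMAIP1 (1.08), PLK2 (0.97), DDB2 (0.91), PPM1D (0.89), XPC (0.86), PLK3 (0.71), AEN (0.69) and POLH (0.36). It was the lower for TP53INP1 (−1.17), FDXR (−0.90), BAX (−0.74), APAF1 (−0.63), CCNG1 (−0.58), BTG2 (−0.47) and SUSD6 (−0.29). Of all genes tested 58.3% had a called difference. Groups of 3 libraries were not tested for single libraries that stand apart.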

How the results depend on the processing

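For the 102xPR response (23 to 26 members called when a library was left out) and its difference from the ChFP response (15 to 18), the counts stayed within 1.5 times of 26 and 17 under every alternative run. For the ChFP response (16) they did not, although DESeq2 gave 24: 8 members were called in the fit with a library-set term (1.06% of all genes), 25 with set and replicate block together (3.4%), and 5 to 22 when a library was left out. The 0 within the set of 8 comes from 1 induced library, with 0.0185% of all genes called. Over all genes the ChFP response had 311 calls, 552 by DESeq2 and 163 with the set as a covariate. For poly-adenylate (0 called) DESeq2, no filter and the fit within the set of 10 (1 uninduced library, 0.137% of all genes) each gave 1, set and block 7 (1.28%), and leaving out a library 0 to 4. For poly-adenylate minus ChFP (0) DESeq2 gave 1, the set 2 (1.39%), and set and block 21 (5.83%). Between the uninduced lines (3) DESeq2 gave 5, the libraries compared alone 8, the set 0 (as of all genes), and leaving out a library 0 to 2. In the difference of 102xPR and ChFP, CDKN1A and PHLDA3 changed sign and were called with set and block together (0.19 and 0.47). The causes were not tested.

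Deviations from the group means, over all genes tested, correlated at 0.00 to 0.22 between same-numbered libraries of a line. Of these 9 pairs 3 were over 0.1. The numbers were therefore not taken as pairing, and 10 of 18 libraries were closest on average to their own number. The members shared more by number, with replicate 1 highest in at least 5 of the 6 groups for 21 of 31. The main fit counts that shift as scatter. For the ChFP response of CDKN1A the SE was 0.28 there and 0.07 with a replicate block, and for PLK3 0.19 and 0.20. With the replicate block 26 members were called for ChFP (4.55% of all genes), 6 for poly-adenylate (1.74%), 20 for the difference of 102xPR and ChFP (59.8%), 6 for poly-adenylate minus ChFP (0.304%) and 11 between the uninduced lines (15.5%). CDKN1A was among the 6 for poly-adenylate (0.48, adjusted p = 0.00324).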

Other observations

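Some other p53 target genes, chosen after their values were seen, also rose in both lines. GDF15, a secreted stress cytokine, stood at 0.356 ± 0.253 CPM in uninduced and 1.87 ± 0.849 CPM in induced ChFP cells and at 0.740 ± 0.284 and 10.6 ± 3.09 CPM in 102xPR cells (SD, n = 3). By edgeR it rose by 2.31 ± 0.51 (SE, adjusted p = 0.0328) and 3.80 ± 0.36 (adjusted p = 6.51e-08), with no called difference (1.49 ± 0.72, adjusted p = 0.0865). DRAM1, a lysosomal protein of autophagy, rose by 0.82 ± 0.14 and 0.64 ± 0.13, and SESN1, a sestrin, by 0.50 ± 0.10 and 0.38 ± 0.09. Their differences of −0.18 ± 0.20 and −0.11 ± 0.13 were not called. EDA2R, a TNF receptor family member, rose in 102xPR cells (1.85 ± 0.33, adjusted p = 0.000269) and stood at 1.52 ± 0.36 in ChFP cells (adjusted p = 0.0527).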
